A study of Mus musculus with 6 samples.

Results

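The cells described here were 578 pericytes from the amygdala of 8 mice, 4 that had been fear conditioned (FC) and 4 non-shocked controls (NoFC), and the comparison between these groups was made over mice. Pericytes are the contractile mural cells that sit in the basement membrane of capillaries. They hold the vessel wall together through PDGF-BB signals from endothelium to PDGFRβ on the pericyte, take part in setting capillary tone and maintain the blood-brain barrier. In brain they are known for ATP-sensitive potassium channels built from Kcnj8 and Abcc9 and for a set of amino acid and organic anion transporters.

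The labels give all mice as male wildtype C57BL/6N animals. The study's methods call them young adults and speak of both sexes for its experiments as a whole. Both groups had been habituated to the conditioning chamber. FC mice then received foot shocks there, NoFC mice did not, and the amygdala was taken 90 min after the start of behaviour. The tissue was dissociated with actinomycin D, triptolide and anisomycin, which block transcription and translation, and sorted for the astrocyte surface antigen ACSA-2, so pericytes were a by-product of a sort for astrocytes and no vascular gate had been applied. RNA was counted in unique molecular identifiers (UMIs), 1 per captured RNA molecule. The antigen is carried by ATP1B2, and the pericytes expressed *Atp1b2* at 732 CPM (UMI counts per 1000000 UMIs) in NoFC and 728 CPM in FC mice. The 3 libraries each pooled cells of several mice. Library 1 held 2 NoFC and 2 FC mice, library 2 held 1 NoFC and 2 FC mice, and library 3 held 1 NoFC mouse, so the library and the group were only partly separable.

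Each mouse was marked by an antibody that carries a 15-base tag, which is sequenced with the cell. The tags of the 8 mice are shown because they alone assign a pericyte to a mouse and so to a group, as read 5′ to 3′ with all bases in capitals.
NoFC 1 (library 1): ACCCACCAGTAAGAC
NoFC 2 (library 1): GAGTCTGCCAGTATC
NoFC 3 (library 2): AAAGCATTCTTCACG
NoFC 4 (library 3): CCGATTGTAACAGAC
FC 1 (library 1): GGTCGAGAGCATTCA
FC 2 (library 1): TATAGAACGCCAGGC
FC 3 (library 2): CTTTCGCCAACTCTG
FC 4 (library 2): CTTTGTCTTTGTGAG
The tag of NoFC 1 also marked an FR mouse in library 2, and those of NoFC 2, NoFC 3 and NoFC 4 marked FR mice in other libraries, so tag and library together named the mouse. No 2 of the 8 mice shared both a tag and a library.

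A cell counted as a pericyte when it had at least 500 genes, under 6% mitochondrial UMIs, at least 10 UMIs of *Vtn* and *Rgs5* together, at most 5 of the astrocyte transporters *Slc1a2* and *Slc1a3*, under 5 of *Acta2* and under 3 of *Dcn*. Its strongest tag had to reach 10 UMIs and 3 times the next. Of 13546 cells, 2188 met the gene rule and 990 of these met the tag rule for a mouse of any of the 4 behavioural groups, which left 287 NoFC and 291 FC pericytes. The pericytes lay well inside the *Vtn* and *Rgs5* part of the gene rule, with a median of 97.5 UMIs, 3 of them at 10 or 11 and 2 cells just outside at 8 or 9. For *Slc1a2* and *Slc1a3* together the median was 1 UMI, with 14 pericytes at 4 or 5 and 2 cells just outside at 6 or 7. The tag rule was closer to its edge, with 41 pericytes at 10 or 11 tag UMIs and 33 further cells at 8 or 9. No cell barcode of a pericyte was shared between libraries.

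The pericyte identity held in every mouse. Single genes were scaled to the TMM-adjusted UMI total of the genes tested and sums over marker lists to all UMIs of a mouse's pericytes, neither divided by gene length because a UMI stands for a molecule. All 18 listed pericyte markers were detected and tested, and their summed level lay between 35422 and 39045 CPM in NoFC and between 35959 and 37497 CPM in FC mice. *Pdgfrb*, the PDGF receptor, stood at 1717 CPM (SD 132, n = 4) in NoFC and 1825 (SD 125, n = 4) in FC mice, and *Kcnj8*, the pore subunit of the potassium channel, at 1206 and 1258 CPM. Of these 18 markers, 0 had an unadjusted p under the threshold in either direction, and the 95% interval of the difference lay within 1.5-fold for all 18. *Vtn* and *Rgs5* belong to this list and to the rule that chose the cells, and without them the other 16 markers summed to 17060 to 19544 CPM in NoFC and 17661 to 18854 CPM in FC mice.

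Markers of other cells were low, although the rule itself capped *Slc1a2* and *Slc1a3* of the astrocyte list, *Acta2* of the smooth muscle list and *Dcn* of the fibroblast list. The GEO label calls the cells astrocytes, but *Gfap* had 0 UMIs and *Aqp4* 16 UMIs over all 578 cells. The summed level of the 18 astrocyte markers was 2550 to 2771 CPM in NoFC and 2551 to 2622 CPM in FC mice, and most of it came from *Mfge8*, at 1368 and 1344 CPM, and from *Atp1b2*. Without the capped genes the astrocyte sum was 2411 to 2561 CPM in NoFC and 2408 to 2474 CPM in FC mice. Endothelial markers summed to 736 to 935 CPM in NoFC and 821 to 988 CPM in FC mice, with *Cdh5*, *Abcb1a* and *Ly6a* at 0 UMIs, *Cldn5* and *Pecam1* at 4 UMIs each and *Emcn*, *Esam* and *Flt1* as the main contributors. For smooth muscle the sums were 164 to 228 CPM and 140 to 319.9 CPM, with *Cnn1* and *Actg2* at 0 UMIs. Fibroblast markers ran from 736 to 1043 CPM and from 936 to 1308 CPM, with *Pdgfra*, *Lum* and *Slc47a1* at 0 UMIs and *Igf2* as the largest part. Microglial, oligodendrocyte and red blood cell markers reached at most 52.6, 26.8 and 6.16 CPM in any mouse, and neuronal markers 404 CPM, nearly all of it the noncoding RNA *Meg3*, with *Snap25* at 1 UMI.

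**Figure D1:**
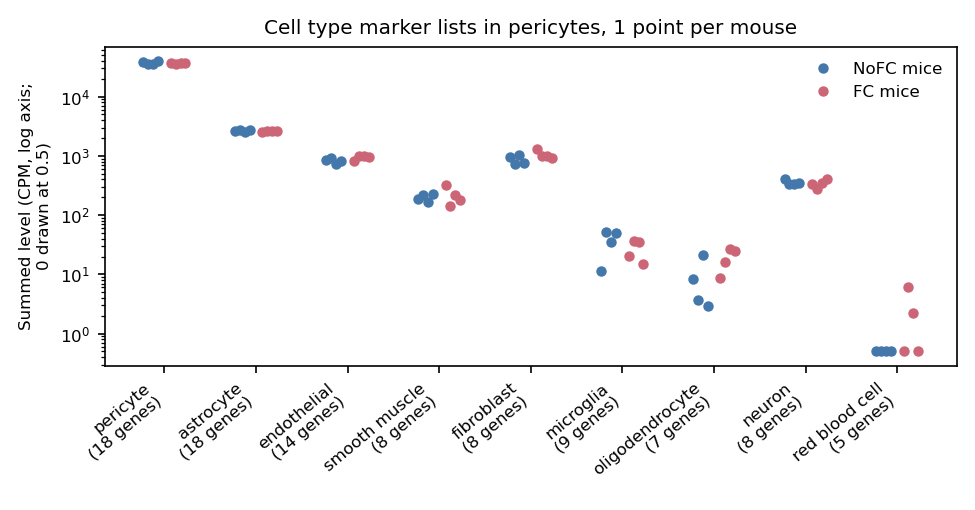
Summed level of 9 cell type marker lists in the pericytes of each mouse, in CPM on a log axis, with 1 point per mouse (4 NoFC in blue, 4 FC in red) and sums of 0 drawn at 0.5. The pericyte list lies at 35422 CPM or above in every mouse and no other list exceeds 2771 CPM in any mouse, with the genes of the selection rule included in the sums.

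Between 37 and 104 pericytes were recovered per mouse, and the groups overlapped in their number and in each measure of their quality. NoFC 1 to 4 had 69, 49, 104 and 65 pericytes, and FC 1 to 4 had 64, 100, 90 and 37. The means were 71.8 ± 23.2 (SD, n = 4) and 72.8 ± 28.3 (SD, n = 4), a difference of 1.00 with an exact 2-sided permutation p of 0.971, where 0.0286 is the smallest p that 4 mice against 4 can give. FC 1 stood apart from the other mice in what else it contributed. Pericytes made up 29.8% of its tag-assigned cells, beside 144 astrocytes, against 78.7% to 92.8% in FC 2 to 4 and 81.9% to 89.1% in NoFC mice. The group means of this share were 71.7 ± 28.5% in FC and 85.8 ± 3.82% in NoFC (exact permutation p = 0.514), and without FC 1 the difference went from −14.1 to −0.13 percentage points. The share depended on the tag rule and was lower in every mouse with a tag rule of 5 UMIs and 2 times the next. It was then 14.6% in FC 1, beside 493 astrocytes, 54.9% to 84.9% in FC 2 to 4 and 62.4% to 79.3% in NoFC mice.

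The median UMI count per pericyte was 5001 to 5549 in NoFC and 4884 to 5349 in FC mice (difference −146, exact permutation p = 0.429). The median mitochondrial share was 1.75 ± 0.104% and 1.74 ± 0.187% (exact permutation p = 0.971), and the median of the strongest tag 20.4 ± 1.70 and 23.1 ± 5.51 UMIs (exact permutation p = 0.486). Adjusted over these 5 quantities by Benjamini-Hochberg, the p-values of the exact tests were between 0.857 and 0.971. Summed over its pericytes, a mouse had between 202922 UMIs (FC 4) and 604757 UMIs (NoFC 3).

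The main question was which genes differed between FC and NoFC pericytes, and no gene passed the adjusted threshold of 0.05. Of 32285 annotated genes, 6337 were abundant enough to test, judged over the 16 mice of the 4 behavioural groups. With edgeR's quasi-likelihood test on the sums per mouse and the library as covariate, 0 of them were called (0%), with a smallest adjusted p of 0.227. DESeq2 on the same genes also called 0. Without adjustment, 162 genes (2.56%) passed 0.05 in the direction of higher levels in FC and 128 (2.02%) in that of lower levels, 290 or 4.58% together, beside the 5% that this threshold lets through when nothing differs. All 4 FC mice lay above all 4 NoFC mice in 95 genes (1.5%) and below them in 93 (1.47%). Across genes, log2 CPM correlated between mice with a median Pearson's r of 0.914 for the 16 pairs of an FC and a NoFC mouse, 0.919 for the 6 pairs within NoFC and 0.906 for the 6 within FC, over 6337 genes that are not independent replicates.

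The data bounded what could have been missed. The 95% interval of the difference lay within 2-fold in both directions for 5486 of the tested genes (86.6%) and within 1.5-fold for 40.4%. For the 242 genes above 500 CPM the median standard error was 0.11 on the log2 scale and 99.6% of the intervals lay within 1.5-fold. For the 2039 genes at 50 to 100 CPM the median standard error was 0.24 and 32.2% did, and for the 2096 genes under 50 CPM it was 0.34 and 0.382% did. Most intervals under 100 CPM thus did not exclude a 1.5-fold difference. The intervals were not adjusted for the number of genes tested, so they do not give the difference that would have been called. A fitted difference of 1.65-fold at 131 CPM, in *Uhrf2*, was not called. The largest fitted differences in either direction, 1.67 for *Ier5* and −1.20 for *Nuak1*, both belonged to genes under 50 CPM, and no FC or NoFC mouse had *Ier5* above 21.3 CPM.

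**Figure D2:**
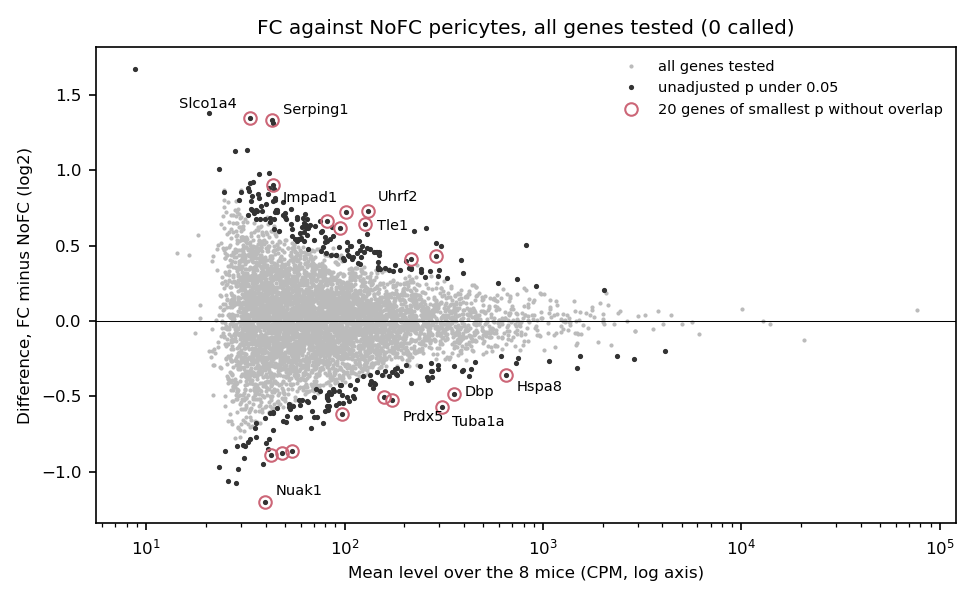
Difference between FC and NoFC pericytes (log2, FC minus NoFC) against the mean level over the 8 mice (CPM, log axis) for the 6337 genes tested, with genes of unadjusted p under 0.05 in black and the 20 genes of smallest p whose groups do not overlap circled. The spread narrows with level, and 0 genes were called.

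Because no gene was called, the 20 genes of smallest unadjusted p whose 4 FC and 4 NoFC mice did not overlap are given as values. 10 were higher and 10 lower in FC, and the absence of overlap was a condition of their choice. *Serping1*, the inhibitor of complement C1 esterase (chromosome 2 of GRCm38, 84765387 to 84775444, reverse strand), had the smallest p. It was at 26.7, 16.1, 24.8 and 37.9 CPM in NoFC 1 to 4 and at 62.9, 56.9, 68.5 and 52.8 CPM in FC 1 to 4. In the fit with the library as covariate, the level in FC was 2.52 times that of NoFC (log2 difference 1.33, SE 0.33, adjusted p = 0.227 in edgeR). In library 1 the means were 21.4 CPM in NoFC and 59.9 in FC, and in library 2 they were 24.8 and 60.6, while NoFC 4, alone in library 3, had 37.9 CPM, the highest of the NoFC mice.

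*Slco1a4* (chromosome 6, 141805440 to 141856199, reverse strand), an organic anion transporter of the blood-brain barrier that endothelial cells express strongly, was at 5.94, 28.1, 30.1 and 22.1 CPM in NoFC 1 to 4 and at 40.9, 48.2, 37.8 and 52.8 CPM in FC 1 to 4. NoFC 1 was the lowest mouse by far, and the highest NoFC mouse, NoFC 3, lay next to FC 3, the lowest of the FC mice. The log2 difference was 1.34 (SE 0.42, adjusted p = 0.753 in edgeR), and over the alternatives it moved between 0.97 and 2.03. Summed endothelial markers, of which *Slco1a4* is 1 of 14, had a median of 833 CPM in NoFC and 965 CPM in FC mice. The fitted log2 difference was above 0 for all 4 tested members of that list, all 3 tested smooth muscle and all 3 tested fibroblast markers. The mean levels were less uniform. *Emcn* was at 393 and 459 CPM, *Flt1* at 150 and 153 CPM and *Esam* at 281 CPM in both groups. *Myh11*, *Des* and *Lmod1* of smooth muscle were at 111, 73.2 and 28.4 CPM in NoFC and at 107, 79.6 and 39.0 CPM in FC mice. Smooth muscle sums had medians of 205 CPM in NoFC and 199 CPM in FC mice, and fibroblast sums 865 and 997 CPM. The fibroblast marker *Igf2*, a growth factor gene, was at 652 and 821 CPM with an unadjusted p under 0.05 in edgeR. The part of other vascular cells in these differences was not tested.

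*Uhrf2*, a ubiquitin ligase that binds modified cytosine, was at 92.1, 92.4, 106 and 114 CPM in NoFC and at 157, 155, 203 and 127 CPM in FC mice (log2 difference 0.73, SE 0.18, adjusted p = 0.25 in edgeR). *Tle1*, a Groucho-type corepressor, was at 101, 80.3, 101 and 104 CPM and at 138, 138, 139 and 211 CPM, where FC 4 lay far above the other FC mice, which were nearly equal (adjusted p = 0.584 in edgeR). *Impad1*, a phosphatase of the Golgi, stood at 76.8 and 126 CPM, *Csnk2a2*, a catalytic subunit of casein kinase 2, at 67.1 and 95.2 CPM, and *Gmds*, which makes GDP-fucose, at 247 and 333 CPM. The other genes higher in FC were *Zzz3*, *Zranb2* and *Spopl*, with log2 differences of 0.62, 0.41 and 0.90. Adjusted p-values for the last 6 genes ran from 0.516 to 0.99 in edgeR.

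Among the 10 lower genes, *Tuba1a*, an α-tubulin (chromosome 15, 98949837 to 98953703, reverse strand), was at 377, 394, 374 and 309.6 CPM in NoFC 1 to 4 and at 302, 215, 281 and 222 CPM in FC 1 to 4. NoFC 4 and FC 1 lay next to each other at the boundary. The log2 difference was −0.57 (SE 0.14, adjusted p = 0.227 in edgeR), and reads of near-identical tubulin genes may not have been told apart. *Nuak1*, an AMPK-related kinase, was at 50.5, 44.2, 65.5 and 60.0 CPM and at 6.29, 30.7, 40.2 and 21.1 CPM (log2 difference −1.20, SE 0.34, adjusted p = 0.464 in edgeR), with FC 1 at the bottom of its group. *Prdx5*, a peroxiredoxin, was at 206 and 142 CPM, and *Psmd8*, a lid subunit of the proteasome, at 121 and 74.0 CPM. *Trip4*, a transcriptional coactivator, *Tnxb*, the matrix protein tenascin X, and *Tmem9b* had log2 differences of −0.86, −0.88 and −0.89. The remaining 3, *Dbp*, *Hspa8* and *Xbp1*, are described with their lists.

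**Figure D3:**
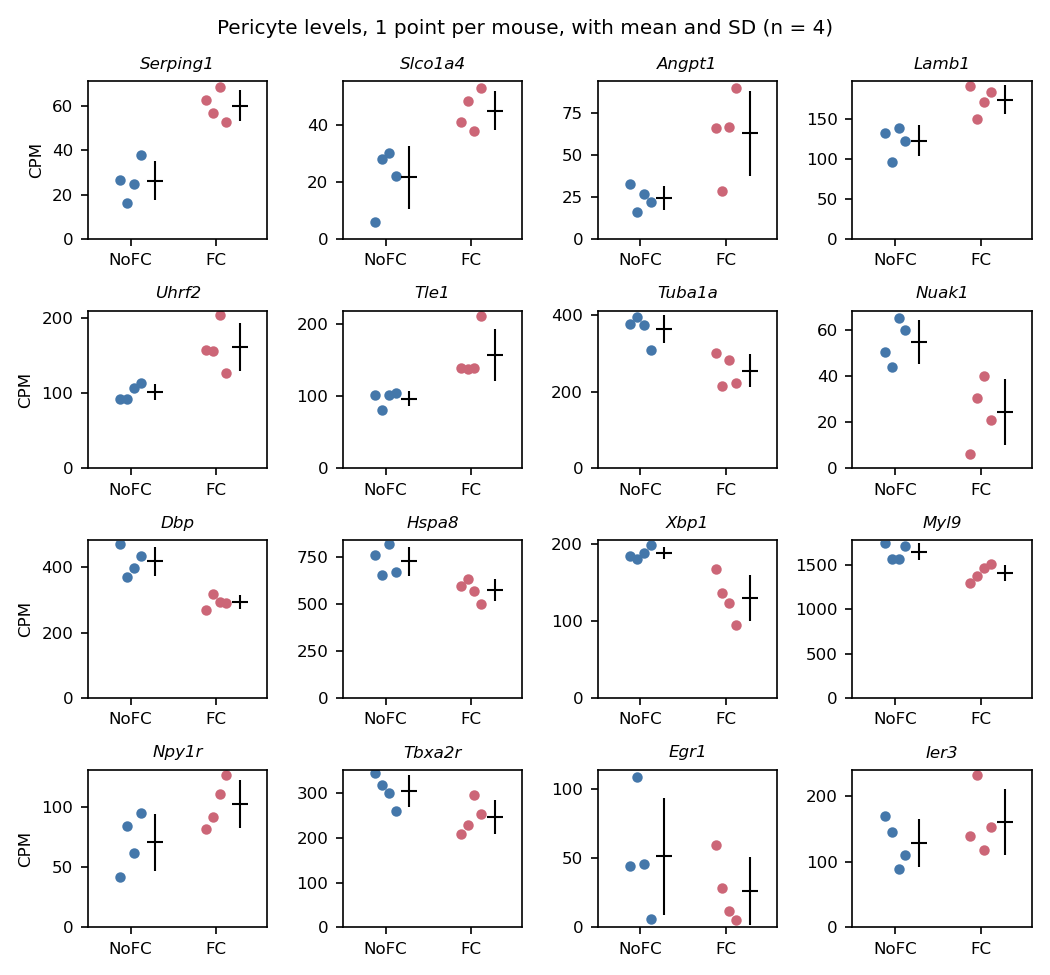
Levels of 16 genes in the pericytes of each mouse (CPM, linear axes from 0), with 1 point per mouse and the mean with its SD (n = 4) beside each group. The groups do not overlap in *Serping1*, *Slco1a4*, *Lamb1*, *Uhrf2*, *Tle1*, *Tuba1a*, *Nuak1*, *Dbp*, *Hspa8*, *Xbp1* and *Myl9* and overlap in *Angpt1*, *Npy1r*, *Tbxa2r*, *Egr1* and *Ier3*, and none was called.

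Genes were then read by role, from 13 lists, beside all genes tested, of which 3247 were above 0 and 3090 below. Receptors for vasoactive signals let pericytes respond to transmitters and hormones, and of 45 listed, 11 were tested and 0 were called. Noradrenaline receptors were scarce. *Adrb1* and *Adrb3*, which encode β-adrenoceptors, had 0 UMIs in 578 pericytes. Counted over the pooled cells of both groups and not over mice, this allows a share of up to 0.519% of cells with a UMI. *Adra1a*, the α1A-adrenoceptor gene, named because the study concerns noradrenaline and after its values had been seen, had 91 UMIs in all. It was at 17.8, 20.1, 53.1 and 47.4 CPM in NoFC 1 to 4 and at 15.7, 32.8, 16.5 and 42.2 CPM in FC 1 to 4, overlapping groups with a log2 difference of −0.59 (95% interval −1.49 to 0.32), so neither a fall of more than 2-fold nor a small rise lay outside the interval. *Adra1b* and *Adra2a* had 15 and 25 UMIs.

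The abundant receptors had narrow intervals around 0. *P2ry14*, a receptor for UDP-glucose, stood at 1206 CPM in NoFC and 1134 CPM in FC mice, *Gucy1b1*, a subunit of the nitric oxide receptor, at 1110.4 and 1154 CPM, and *S1pr3*, a sphingosine phosphate receptor, at 724 and 729.8 CPM. Their 95% intervals of the log2 difference were −0.28 to 0.12, −0.15 to 0.24 and −0.24 to 0.20. Only *Npy1r* and *Tbxa2r* had an unadjusted p under 0.05, in opposite directions. *Npy1r*, the vasoconstrictor receptor for neuropeptide Y, was at 41.6, 84.4, 62.0 and 94.8 CPM in NoFC 1 to 4 and at 81.8, 92.0, 111 and 127 CPM in FC 1 to 4 (log2 difference 0.62, SE 0.22, adjusted p = 0.99 in edgeR). The thromboxane receptor gene *Tbxa2r* was at 345, 317, 301 and 259 CPM and at 208, 228, 295 and 253 CPM (log2 difference −0.37, SE 0.15, adjusted p = 0.99 in edgeR). In both genes the groups overlapped.

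Among channels and calcium handling genes, 22 of 32 were tested, 0 were called, and the median log2 difference was 0.010 beside 0.0058 over all genes. *Abcc9* and *Kcnj8* were at 1999.6 and 1206 CPM in NoFC and at 2029 and 1258 CPM in FC mice, with 95% intervals of −0.19 to 0.21 and −0.21 to 0.24 on the log2 scale. *Itpr2*, a calcium release channel, had log2 difference −0.067 (95% interval −0.29 to 0.16). *Kcnt2*, a sodium-activated potassium channel, was at 70.5 and 92.2 CPM, and *Kcnmb1*, the β1 subunit of the BK channel, at 97.8 and 68.9 CPM (adjusted p = 0.997 for each in edgeR). They were the only channel genes with an unadjusted p under 0.05.

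Of 21 contractile genes 15 were tested and 10 of these were below 0, with a median log2 difference of −0.065. The regulatory light chain gene *Myl9* was at 1752, 1563, 1569 and 1716 CPM in NoFC 1 to 4 and at 1299, 1373, 1467 and 1504 CPM in FC 1 to 4. The FC mice lay below the NoFC mice by a narrow margin, with a log2 difference of −0.23 (SE 0.10, adjusted p = 0.997 in edgeR). *Myl6*, the essential light chain, had 885, 707, 877 and 723 CPM and 601, 705, 725 and 755 CPM, with overlap, and a log2 difference of −0.24. *Cald1*, the actin-binding caldesmon and the most abundant of the list, was at 5061 and 4968 CPM (95% interval −0.18 to 0.14). *Acta2*, smooth muscle actin, which the rule held low, had 3 UMIs in all, and *Cnn1* and *Actg2* had 0.

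PDGF, TGF-β, BMP and Notch signalling tie pericytes to endothelium, and of 36 genes 23 were tested, 0 with an unadjusted p under 0.05. *Notch3*, the mural Notch receptor, was at 1067 and 1099.8 CPM (95% interval −0.13 to 0.29), *Pdgfrb* had a log2 difference of 0.092 (95% interval −0.093 to 0.28) and *Notch1* of −0.014 (95% interval −0.25 to 0.22). In the angiopoietin and VEGF list only 5 of 20 genes were tested. *Angpt1*, the Tie2 ligand that pericytes supply to endothelium, was at 32.7, 16.1, 26.6 and 22.1 CPM in NoFC 1 to 4 and at 66.0, 28.5, 66.1 and 89.7 CPM in FC 1 to 4. FC 2 lay within the NoFC range and the other FC mice lay above it, with a log2 difference of 1.31 (SE 0.41, adjusted p = 0.753 in edgeR). *Angptl4*, a lipoprotein lipase inhibitor that is also on the glucocorticoid list, was at 14.8, 24.1, 24.8 and 41.1 CPM and at 69.2, 30.7, 40.2 and 52.8 CPM (log2 difference 0.97, adjusted p = 0.99 in edgeR). The VEGF receptor gene *Flt1*, the coreceptor gene *Nrp1* and the ligand gene *Vegfb* had log2 differences of 0.13, 0.14 and −0.0085.

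Basement membrane genes, which encode the collagen IV and laminin sheet around the pericyte, were tested in 22 of 26 cases and 16 of these were above 0, with a median log2 difference of 0.079. *Lamb1*, the laminin β1 chain, was at 134, 96.4, 139.9 and 123 CPM in NoFC 1 to 4 and at 192, 151, 172 and 185 CPM in FC 1 to 4, without overlap (log2 difference 0.46, SE 0.17, adjusted p = 0.99 in edgeR), and it was the only gene of the list with an unadjusted p under 0.05. The collagen receptor gene *Itga1*, its partner *Itgb1* and *Sparc*, a collagen-binding matrix protein, were the most abundant, with 95% intervals of −0.14 to 0.24, −0.15 to 0.23 and −0.13 to 0.31.

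In the list of membrane transporters, which move amino acids, anions and ions across the pericyte membrane, 17 of 25 were tested and 13 of these were above 0 (median log2 difference 0.11). 3 of the 17 had an unadjusted p under 0.05 in the direction of higher levels in FC, where 2.56% of all genes did, and 0 were called. They were *Slco1a4*, the proline transporter gene *Slc6a20a*, at 1841, 1763, 1762 and 2385 CPM in NoFC and 2503, 2019, 1965 and 1974 CPM in FC mice, and the GABA and taurine transporter gene *Slc6a13*, at 134, 137, 124 and 126 CPM and 229.5, 153, 163 and 121 CPM. In *Slc6a13* FC 1 was the highest mouse and FC 4 lay below all NoFC mice. *Atp13a5*, a P-type ATPase that marks brain pericytes, was at 4327 CPM in NoFC and at 4511 CPM in FC mice, with a 95% interval of −0.13 to 0.21 for the log2 difference.

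**Figure D4:**
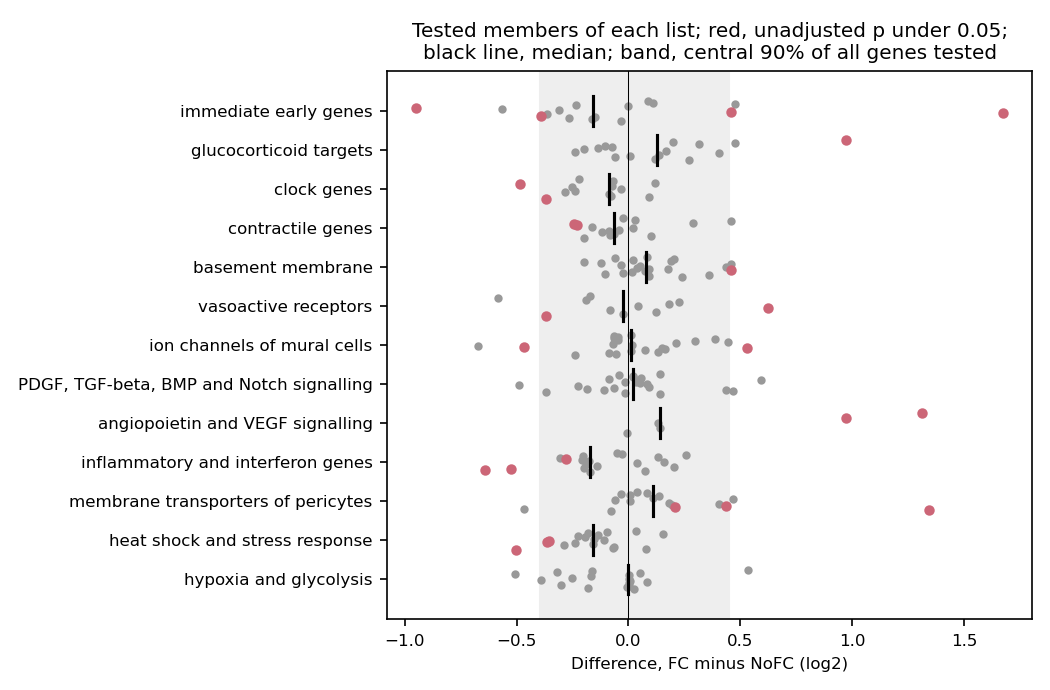
Difference between FC and NoFC pericytes (log2, FC minus NoFC) for the tested members of 13 gene lists, 1 point per gene, red where the unadjusted p was under 0.05, with the list median as a black line and the central 90% of all 6337 genes, −0.397 to 0.449, as a grey band. The list medians run from −0.17 to 0.14.

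Immediate early genes mark recent signalling in many cells, and some that are used to mark neuronal activity were not detected at this depth. *Fos*, *Fosb*, *Arc*, *Npas4*, *Nr4a3* and *Egr2* had 0 UMIs in the 578 pericytes, which allows a share of up to 0.519% each over the pooled cells of both groups. Over all 2188 cells of the gene rule *Fos* was found in 5 cells. Of 42 listed genes 16 were tested, 0 were called, 5 were above 0 and 11 below, with a median log2 difference of −0.16. *Egr1*, an inducible transcription factor gene, was at 44.5, 108, 46.0 and 6.32 CPM in NoFC 1 to 4 and at 59.7, 28.5, 11.8 and 5.28 CPM in FC 1 to 4. Its level ranged widely within both groups and the groups overlapped (log2 difference −0.95, SE 0.43, adjusted p = 0.997 in edgeR). *Jund*, an AP-1 subunit, was at 386, 273, 253 and 278 CPM and 220.1, 188, 257 and 243 CPM (log2 difference −0.39, adjusted p = 0.99 in edgeR).

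The other members with an unadjusted p under 0.05 were higher in FC. *Ier3*, a stress-induced survival factor, was at 169, 145, 88.5 and 111 CPM in NoFC 1 to 4 and at 138, 232, 118 and 153 CPM in FC 1 to 4, with FC 2 highest. *Ier5* rested on 25 UMIs in the 8 mice, with NoFC 4 at 0, and stood at 4.38 CPM in NoFC and 13.3 CPM in FC mice (95% interval of the log2 difference 0.036 to 3.31). No FC or NoFC mouse had *Ier5* above 21.3 CPM. The filter for testing ran over all 16 mice, and *Ier5* passed it through mice outside this comparison. Its means were 41.9 CPM in NoFR (conditioned without recall) and 21.9 CPM in FR (conditioned and recalled) mice. Of the abundant members, the C/EBP factor gene *Cebpd*, the mRNA decay factor gene *Zfp36l1* and the antiproliferative gene *Btg1* had 95% intervals of −0.55 to 0.080, −0.29 to 0.22 and −0.20 to 0.37.

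Glucocorticoids rise with stress, and their targets were examined for that reason. Of 30 genes 16 were tested and 10 were above 0 (median log2 difference 0.13). *Angptl4* was the only member with an unadjusted p under 0.05, and 0 were called. *Nr3c1*, the glucocorticoid receptor gene, was at 192 and 213 CPM (95% interval −0.13 to 0.47), *Klf9*, a direct target, at 582 and 517 CPM (95% interval −0.35 to 0.14), and *Tsc22d1* at 388 and 387 CPM. *Fkbp5*, the best known target, had 128 UMIs and a log2 difference of 0.32 with a 95% interval of −0.39 to 1.02.

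Among clock genes, 11 of the 13 tested of 20 listed were below 0 in FC, against 3090 of 6337 for all genes, with a median log2 difference of −0.085 and 0 called. *Dbp*, the D-box activator whose transcript cycles strongly over the day (chromosome 7, 45705088 to 45710203, forward strand), was at 472, 369.5, 398 and 436 CPM in NoFC 1 to 4 and at 270.4, 319.7, 295 and 290.3 CPM in FC 1 to 4. In the fit with the library as covariate, the level in FC was 0.715 times that in NoFC (log2 difference −0.48, SE 0.15, adjusted p = 0.753 in edgeR). In the groups taken on the next day the mean of *Dbp* was 99.0 CPM (NoFR, conditioned without recall) and 255 CPM (FR, conditioned and recalled). *Tef*, a factor of the same family, was at 208, 153, 193 and 218 CPM and at 113, 159.8, 177 and 121 CPM, with 64.0 CPM in NoFR and 103 CPM in FR mice. The third family member, *Hlf*, had a 95% interval of −0.33 to 0.19 and *Rora*, the most abundant of the list, of −0.29 to 0.13. Behaviour was run in the light phase per the study's methods. The hour at which each mouse was taken was not given in the sources used here, so its part in these values was not tested.

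Heat shock and unfolded protein genes were below 0 in 15 of the 18 tested of 28 listed, against 3090 of 6337 for all genes, with a median log2 difference of −0.16, and 0 were called. 3 of the 18 had an unadjusted p under 0.05 in the direction of lower levels in FC, where 2.02% of all genes did. *Hspa8*, the constitutive HSC70 chaperone, was at 760.3, 655, 822 and 669.8 CPM in NoFC 1 to 4 and at 594, 635, 567 and 501 CPM in FC 1 to 4 (log2 difference −0.36, SE 0.11, adjusted p = 0.906 in edgeR), with the lowest NoFC mouse within 20 CPM of the highest FC mouse. Without NoFC 3 the difference in *Hspa8* was −0.20. *Xbp1*, the transcription factor of the unfolded protein response, was at 184, 181, 188 and 199 CPM and at 167, 136, 123 and 95.02 CPM (log2 difference −0.50, SE 0.16, adjusted p = 0.954 in edgeR). NoFC mice were close together and FC mice spread below them. *Hspb1*, the small chaperone HSP27, was at 511, 422, 588 and 392 CPM and at 223, 464, 498 and 296 CPM, where the groups overlapped, and *Hsp90ab1* and *Hsp90b1* had 95% intervals of −0.40 to 0.0095 and −0.38 to 0.065.

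Inflammatory and interferon genes were tested in 19 of 46 cases, 13 of them below 0 (median log2 difference −0.17), and 0 were called. *Ifitm1*, *Ifitm2* and *Ifitm3*, neighbouring interferon-induced genes of similar sequence whose reads may not have been told apart, were the most abundant. *Ifitm1* was at 835, 783, 735 and 856 CPM in NoFC 1 to 4 and at 654, 742, 633 and 591 CPM in FC 1 to 4 (log2 difference −0.28, SE 0.12, adjusted p = 0.99 in edgeR), with FC 2 just above the lowest NoFC mouse. *Rela*, an NF-κB subunit, was at 67.2 and 50.2 CPM, and the groups overlapped. The cytokine genes *Il6* and *Cxcl10* and the adhesion gene *Icam1* had 0 UMIs. Of 27 hypoxia and glycolysis genes 18 were tested, 9 above and 9 below 0, with 0 under an unadjusted p of 0.05. *Ndufa4l2*, a pericyte marker of the mitochondrion, *Epas1*, which encodes HIF-2α, and the aldolase gene *Aldoa* had 95% intervals of −0.20 to 0.20, −0.21 to 0.21 and −0.39 to 0.065.

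The tested members of highest level in each list, up to 3 a list and 38 genes in all, gave bounds for their differences. Not all were abundant, and *Vegfb* and *Nrp1* had mean levels of 49.4 and 78.1 CPM over both groups. All 38 intervals lay within 2-fold, and 32 held 0. The other 6 were those of *Dbp*, *Hspa8*, *Myl9*, *Myl6*, *Ifitm1* and *Slc6a20a*.

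**Figure D5:**
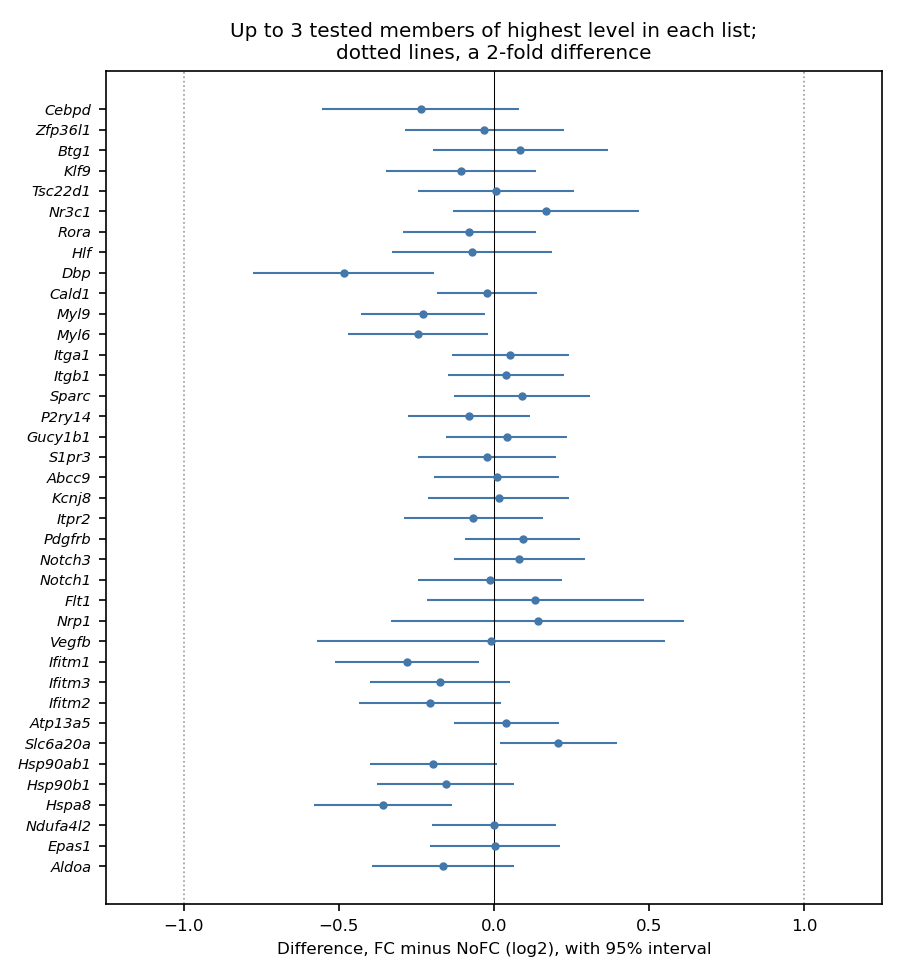
Difference between FC and NoFC pericytes (log2, FC minus NoFC) with its 95% interval for up to 3 tested members of highest level in each of 13 lists, 38 genes, with dotted lines at a 2-fold difference. All 38 intervals lie within 2-fold, the lowest bound at −0.78 and the highest at 0.61.

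Whether the pericyte response differed from that of astrocytes of the same mice was tested as an interaction with the mouse as block. Astrocytes that met the strict tag rule numbered 2 to 7 in NoFC mice and 3 to 144 in FC mice. Of 6065 genes 0 were called (0%), with a smallest adjusted p of 0.696 in edgeR and 109 genes under an unadjusted 0.05. Some genes, such as *Lurap1l* with a standard error of 3596, had no usable estimate. The median standard error of the interaction was 0.81 on the log2 scale, against 0.24 for the pericyte difference itself, so only large differences between the cell types could have been called. With the tag rule relaxed to 5 UMIs and 2 times the next, 8375 genes were tested and 0 were called, with a smallest adjusted p of 0.546 in edgeR.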

How the data were processed

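Single-cell RNA-seq was run on 3 libraries of ACSA-2-sorted amygdala cells. The deposited tables hold raw UMI counts for every gene and cell, not normalized by the authors, with counts of each hashtag antibody per cell and a table that gives every hashtag's mouse and behavioural group. They aligned reads to mm10 with Cell Ranger, given as version 3.0 in the submitters' processing notes and as 7.0.0 in the header of the deposited count matrices. The mouse and the group were taken from the hashtag and the library, since the GEO samples are libraries. The hashtag rule was the only treatment of doublets, and no caller was run.

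Counts were summed over the pericytes of each mouse, 202922 to 604757 UMIs in the 8 mice. All 16 mice of the 4 groups (with NoFR and FR) entered edgeR 4.0.16 (R 4.3.3, TMM, filterByExpr, quasi-likelihood test), with group and library as terms and the contrast FC minus NoFC, and Benjamini-Hochberg adjustment over all genes tested with a threshold of 0.05. Intervals are 95% from a standard error computed from the fitted weights, apart from the quasi-likelihood test that gave the p-values. Intervals and floors of counts cover the error of counting or the spread between mice and nothing else, and a count of 0 was read as at most 3. Quantities per mouse were compared by exact 2-sided permutation tests in R 4.3.3. The interaction with astrocytes (at least 10 UMIs of *Slc1a2* and *Slc1a3*, at most 5 of *Vtn* and *Rgs5*) had the mouse as block. The fit was tested on simulated data.

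Genes were named by rule: called genes, then the genes of smallest unadjusted p whose groups did not overlap up to 20, and of each list the 3 tested members of highest level and those with an unadjusted p under 0.05. Some of the genes so named are not reported here. The members and lists were chosen with earlier results of these data known. Positions are from GENCODE vM21 (GRCm38), where 75 of 75 named genes matched, and not from the annotation of the files. Alternatives were no library term, FC and NoFC mice alone, DESeq2 1.42.0, RLE scaling, a filter at 10 UMIs, a looser hashtag rule, a stricter gate, library 1 alone and each mouse left out.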

Additional observations from a re-analysis of the deposited data

Results flagged for a closer look

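In 13 of the 156 groups of 4 mice examined (8.33%), 1 mouse stood far from the other 3, each time in a gene named above. Chance alone flags about 1 in 20 independent groups. These groups reuse the same mice and are not independent, so an excess over chance was not tested. In NoFC mice, *Tle1* was at 80.3 CPM in NoFC 2 against 101 to 104 in the others, *Psmd8* at 157 CPM in NoFC 2 against 107 to 111, *Nr3c1* at 229 CPM in NoFC 2 against 175 to 184 and *Notch1* at 444 CPM in NoFC 3 against 471 to 475. NoFC 4, the only mouse of the comparison in library 3, was the mouse set apart in 4 genes. It had *Klf9* at 789.8 CPM against 499 to 522, *Pdgfrb* at 1915 CPM against 1639 to 1666, *Slc6a20a* at 2385 CPM against 1762 to 1841 and *Hsp90ab1* at 840.4 CPM against 1113 to 1155.

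In FC mice, *Tle1* was at 211 CPM in FC 4 against 138 to 139, *Spopl* at 76.6 CPM in FC 2 against 42.2 to 47.2 and *Flt1* at 111 CPM in FC 4 against 164 to 172. FC 1 had *Slc6a20a* at 2503 CPM against 1965 to 2019 and *Aldoa* at 500.0 CPM against 565 to 572.

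A further 521 cells met the pericyte rule and the tag rule with a tag that the table lists for no mouse of their library. They entered no comparison. Of the pericytes that met the tag rule, a listed mouse was named for 456 of 521 in library 1, 287 of 447 in library 2 and 247 of 543 in library 3. What the unlisted tags mean for the certainty of the other assignments was not tested.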

How the results depend on the processing

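The count of called genes stayed at 0 in edgeR without the library term, with the FC and NoFC mice alone (where NoFC 4 is absorbed by the term of library 3), with RLE scaling, with a looser hashtag rule, in library 1 alone and on dropping 1 of the 8 mice at a time (259 to 328 genes under an unadjusted 0.05), and in DESeq2 (114 genes under an unadjusted 0.05). A filter at 10 UMIs (12205 genes) gave 1 called gene, lower in FC. This was *H2-Q7*, with 1, 28, 1 and 14 UMIs in NoFC 1 to 4 and 0, 1, 0 and 0 in FC 1 to 4 (log2 difference −4.60, SE 1.64, adjusted p = 0.00418 in edgeR), which rests on NoFC 2 and NoFC 4 and was too rare for the main test. Its SE was computed apart from the quasi-likelihood test, and at these counts it is too wide to match so small a p-value. A gate of at most 1 *Slc1a2* and *Slc1a3* UMI (5454 genes) gave 1 called gene, higher in FC. This was *C1qtnf7*, a C1q/TNF-related gene (log2 difference 0.83, adjusted p = 0.0457 in edgeR), which was at 0.60 with an adjusted p of 0.250 in the main test. The difference in pericytes per mouse turned to −5.50 with the looser hashtag rule and that in median UMIs per pericyte to 65.6 with the stricter gate, and the cause was not tested. Without FC 1, an alternative chosen after seeing the data, the differences in the 5 quantities per mouse were 3.92 pericytes, −0.13 percentage points of share, −236 in median UMIs per pericyte, −0.0985 percentage points in median mitochondrial share per pericyte and 3.79 in median top hashtag UMIs per pericyte. The 20 genes without overlap and the list genes with an unadjusted p under 0.05 had the same direction in every alternative that tested them (*Tmem9b*, *Egr1*, *Ier5* and *Angptl4* were not tested in at least 1), but the size of some moved by over 1.5 times. Both sets were chosen from these same values, so a stable direction was largely set by their choice and is no separate support. On the log2 scale the difference went without NoFC 3 to −0.20 in *Hspa8*, 0.26 in *Gmds*, −0.57 in *Tnxb* and 2.03 in *Slco1a4*, without FC 2 to 0.60 in *Spopl* and 0.24 in *Ier3*, without FC 1 to −0.19 in *Hspb1*, 0.10 in *Slc6a20a* and 0.26 in *Slc6a13*, with the looser hashtag rule to −0.47 in *Trip4*, 0.26 in *Zranb2*, 0.81 in *Angpt1* and 0.29 in *Lamb1*, and in library 1 alone to −0.29 in *Xbp1*, −0.60 in *Tbxa2r* and −0.72 in *Jund*. *Egr1*, *Ier5*, *Myl6*, *Kcnmb1*, *Kcnt2* and *Rela* also moved by over 1.5 times in at least 1 alternative. Of 73 named genes, 21 with main differences of at most 0.17 in size changed sign in at least 1 alternative. Of these, 10 did so with the stricter gate and 6 in library 1 alone, where *S1pr3* went from −0.023 to 0.23 and *Gucy1b1* from 0.041 to −0.036. No mouse had under 10 pericytes, so the planned removal of such mice was not run. No paired analysis was possible because mouse numbers of different groups name different animals and were given in the order of the hashtag table. Depth limits the comparison most for genes under 50 CPM. For 64.2% of them the interval of the difference, unadjusted for the number of genes tested, lay within 2-fold. Larger fitted differences at this level were not called either, such as 2.52-fold in *Serping1* and 2.54-fold in *Slco1a4* (adjusted p = 0.227 and 0.753 in edgeR).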
